A study of Mus musculus with 2 samples.

Results

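Genes of the route from store-operated calcium entry to NFAT were described in inflammation-experienced regulatory T cells of the mouse. The 10 members were chosen by gene name in the GENCODE M21 annotation, out of 55450 annotated genes. They were the transcription factors Nfatc1, Nfatc2, Nfatc3 and Nfat5, the calcineurin subunits Ppp3ca, Ppp3cb, Ppp3cc and Ppp3r1, the calcium sensor Stim1 and the channel subunit Orai1. Polyadenylated RNA came from 1 group of primary cells, male and adult (6 months), of the strain Foxp3CreERT2 x Rosa26YFP. In that strain a tamoxifen-dependent Cre recombinase is driven by Foxp3, the factor that defines regulatory T cells, and a yellow fluorescent reporter sits at Rosa26. The 1 biological replicate was read as 2 technical libraries, from RNA sheared to 100 to 300 bp, and the labels trace the cells to a haematopoietic cell of the bone marrow. The sources used here do not give the agent that caused inflammation, or say whether animals were pooled. No cells of another condition were analysed here, so levels describe these cells and no effect of inflammation can be read from them.

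When a T cell receptor is engaged, inositol trisphosphate empties the calcium store of the endoplasmic reticulum, STIM proteins sense the loss, and they open ORAI channels in the plasma membrane. The calcium that enters binds calmodulin, which activates the phosphatase calcineurin, a dimer of a catalytic and a regulatory subunit. Calcineurin removes phosphates from NFAT factors, which then enter the nucleus and, in regulatory T cells, act together with Foxp3 at shared target genes. Nfat5 differs from its relatives in that it lacks the calcineurin docking region and responds to osmotic stress.

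The larger gene table held 15376680 estimated gene counts in technical replicate 1 and 13596020 in technical replicate 2. All 6 T cell markers and all 5 regulatory T cell markers reached 1 TPM (a level per transcript length, scaled to a fixed sum over each library) in both libraries, with Foxp3 at 22.05 and 17.9 TPM. Of the B cell markers 0 of 4 did so, and their summed level was 3.24 and 2.50 TPM. The summed level of the 6 myeloid markers was 4.79 and 3.94 TPM, with only Cd68 above the threshold. The 3 NK cell markers summed to 0.50 and 0.89 TPM, with Ncr1 and Klre1 at 0, and the 4 erythroid and platelet markers summed to 10.26 and 11.89 TPM, with Ppbp at 0. Of the last list Hbb-bs (7.32 and 8.16 TPM) and Hba-a1 (2.72 and 3.73 TPM) were above the threshold, Hbb-bs at a level near that of Orai1.

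Sequences of the members are shown where the measurements bear on them, beginning with a 30-base exon near the 3′ end of each calcineurin catalytic gene. Transcripts with and without this exon could be compared for Ppp3ca and Ppp3cb, and the annotated coding transcripts of Ppp3cc all carry it. The exon lies at chr3:136932011-136932040 on the plus strand in Ppp3ca (exon 13 of 14), at chr14:20503247-20503276 on the minus strand in Ppp3cb (exon 13 of 14), and at chr14:70220017-70220046 on the minus strand in Ppp3cc (exon 14 of 15), all in mm10. It is given 5′ to 3′ on the strand of the gene, and capitals mark the positions that are not the same in all 3 genes.
Ppp3ca exon: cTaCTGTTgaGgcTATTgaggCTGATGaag
Ppp3cb exon: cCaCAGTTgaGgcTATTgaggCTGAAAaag
Ppp3cc exon: cCaAACAAgaAgcCGCAgaggAGCGGGaag
Of the 30 positions 13 were the same in all 3 genes. The exons of Ppp3ca and Ppp3cb matched at 26 positions, whereas Ppp3cc matched Ppp3ca at 14 and Ppp3cb at 15.

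The other catalytic sequence that separates transcripts is the end of Ppp3cb-206, an annotated coding form that does not splice at a donor site used by the other coding forms of the gene. It reads on into the intron and ends in a C-terminus of its own, in place of the one that carries the autoinhibitory region. The stretch lies at chr14:20508499-20508623 on the minus strand of mm10 and is 125 bases long, stop codon included. Capitals mark the GT of the unused donor and the TGA stop.
Ppp3cb-206 read-through coding end: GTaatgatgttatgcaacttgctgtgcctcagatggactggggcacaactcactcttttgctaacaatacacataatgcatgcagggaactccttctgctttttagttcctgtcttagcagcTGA
Reads in this stretch help to separate Ppp3cb-206 from the forms with the common C-terminus, but not from unspliced RNA that keeps this intron.

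Nfatc2 and Nfatc3 have annotated transcripts from an upstream and a downstream start, so the 250 bases before each RefSeq start are shown for both genes (build GRCm38.p6, the same coordinates as mm10). Capitals mark GGAAA, the core that NFAT factors bind, or its reverse complement TTTCC.
Nfatc2 upstream start, chr2:168601658-168601907, minus strand: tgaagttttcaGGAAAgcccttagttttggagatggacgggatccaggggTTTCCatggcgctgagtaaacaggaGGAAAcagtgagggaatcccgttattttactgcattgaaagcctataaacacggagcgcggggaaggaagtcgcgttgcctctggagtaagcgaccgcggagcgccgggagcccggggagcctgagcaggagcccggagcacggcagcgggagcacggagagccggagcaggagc
Nfatc2 downstream start, chr2:168590366-168590615, minus strand: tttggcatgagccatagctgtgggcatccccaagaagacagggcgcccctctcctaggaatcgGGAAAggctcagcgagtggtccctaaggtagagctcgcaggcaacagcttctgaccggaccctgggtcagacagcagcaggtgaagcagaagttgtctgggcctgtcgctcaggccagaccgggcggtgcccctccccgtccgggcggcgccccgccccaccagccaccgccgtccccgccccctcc
Nfatc3 upstream start, chr8:106058568-106058817, plus strand: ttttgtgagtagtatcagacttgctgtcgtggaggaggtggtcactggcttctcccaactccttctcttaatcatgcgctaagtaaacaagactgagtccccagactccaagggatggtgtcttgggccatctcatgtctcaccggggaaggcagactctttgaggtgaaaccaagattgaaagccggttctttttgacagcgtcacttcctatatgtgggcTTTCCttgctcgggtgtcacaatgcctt
Nfatc3 downstream start, chr8:106059340-106059589, plus strand: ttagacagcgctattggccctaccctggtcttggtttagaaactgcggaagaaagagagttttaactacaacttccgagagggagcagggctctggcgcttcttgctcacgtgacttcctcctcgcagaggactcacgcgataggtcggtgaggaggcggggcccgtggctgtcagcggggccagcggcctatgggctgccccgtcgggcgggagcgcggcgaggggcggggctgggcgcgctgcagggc
The Nfatc2 upstream window held 3 GGAAA matches, 1 TATAAA match and no GGGCGG match, and its downstream window held 1 GGAAA and 4 GGGCGG matches, on both strands together. The Nfatc3 upstream window held 1 GGAAA match and its downstream window 2 GGGCGG matches and no GGAAA match. The windows of Nfatc2 were 59.6% and 67.6% G or C with 19 and 16 CpG pairs, and those of Nfatc3 were 49.6% and 65.2% with 6 and 22. Over 32851 RefSeq promoter windows of the same length the median was 52.4% with 6 CpG pairs.

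RefSeq windows were matched by symbol for 7 of the 10 members and came to 9 windows. GGAAA was found in 5 of these 9, TATAAA in 1 and GGGCGG in 7, on either strand, and a GGGCGG match can share its last bases with a GGAAA match. Over all windows of that length 55.6% held GGAAA, 12.4% held TATAAA and 32.7% held GGGCGG. These matches describe letters in a window and are not measured binding sites.

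To place the route in the transcriptome of these cells, a gene was counted as detected if neither library had it under 1 TPM. All 10 members were detected, beside 13502 of 55450 genes (24.3%) and 10279 of 21951 protein-coding genes (46.8%). The mean level of the members ran from 7.19 TPM for Orai1 to 68.9 TPM for Nfatc1, a range of 9.59-fold. Their median was 18.4 TPM, beside a median of 18.3 TPM over the detected protein-coding genes. These are levels in bulk RNA, in which a smaller number of expressing cells and less RNA per cell cannot be told apart. Means are given ± SD over the technical libraries (n = 2), which covers technical variation and not variation between animals.

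**Figure D1:**
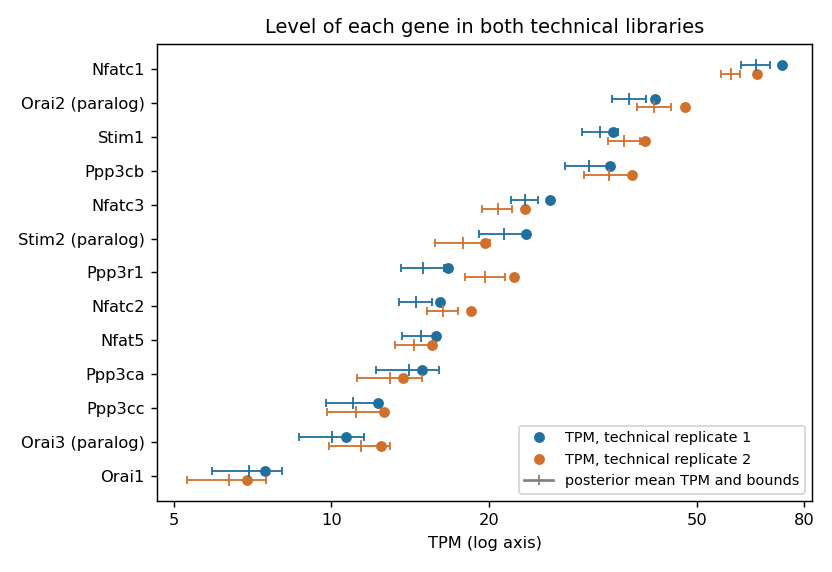
Level of each member and detected paralog in TPM on a log axis, with a dot for each technical library and, as a tick with bars, the deposited posterior mean TPM with its credibility bounds, which lies below the TPM. Nfatc1 was above all other genes shown in both libraries, and Orai1 was below them.

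Ordered by mean TPM, the members ran Nfatc1, Stim1, Ppp3cb, Nfatc3, Ppp3r1, Nfatc2, Nfat5, Ppp3ca, Ppp3cc and Orai1, and the order was the same in each library. Between the 9 pairs of neighbours in that order, the library values did not overlap in 7 pairs. The deposited credibility bounds were apart in 3 of the pairs. These were Nfatc1 over Stim1 (1.85-fold), Ppp3cb over Nfatc3 (1.44-fold) and Ppp3cc over Orai1 (1.73-fold). Stim1 and Ppp3cb, and likewise Ppp3r1 and Nfatc2, had overlapping values and were not told apart.

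Stim1 encodes the sensor whose luminal domain binds calcium in the endoplasmic reticulum (ENSMUSG00000030987.5, chr7:102267806-102437319, plus strand). It was measured at 34.48 TPM in the first and 39.84 TPM in the other technical library (37.2 ± 3.79 TPM), from 1594 and 1534 estimated counts. This level was above that of 68.9% of the detected protein-coding genes. Its relative Stim2, which responds to smaller losses of store calcium, was at 23.6 and 19.65 TPM, below Stim1 in both libraries. Stim1 held 59.4% and 67.0% of the summed TPM of the pair. On transcripts annotated as coding the genes were closer, with Stim1 at 21.70 and 21.30 TPM and Stim2 at 20.41 and 18.12 TPM. Most of that Stim2 level, 18.21 and 16.00 TPM, was on Stim2-203, which begins within the gene and has 1150 coding bases. The longer coding forms Stim2-201 (2238 coding bases) and Stim2-204 (2262) were at 0.10 and 2.12 TPM, and at 2.10 and 0 TPM. Stim1-201, with 2055 coding bases, was at 21.46 and 21.30 TPM.

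Orai1 encodes a pore-forming subunit of the calcium channel that STIM proteins open (ENSMUSG00000049686.14, chr5:123015074-123030456, plus strand). It was at 7.48 and 6.89 TPM (7.19 ± 0.417 TPM) from 169 and 136 estimated counts, the lowest of the members in both libraries. Only 25.9% of the detected protein-coding genes were lower. The paralog Orai2, which can join Orai1 in mixed channels and lowers their current, was at 41.59 and 47.31 TPM. Orai3, a further channel subunit, was at 10.66 and 12.44 TPM, so that both paralogs were above Orai1 in each library. Of the summed TPM of the ORAI genes Orai1 held 12.5% and 10.3%, Orai2 69.6% and 71.0%, and Orai3 17.8% and 18.7%.

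The channel order was not the same in the smaller gene table, which holds whole-number counts that are not per length. There Orai1 had 65 and 47 counts, Orai2 41 and 53, and Orai3 129 and 129. Orai3 therefore held 54.9% and 56.3% of the ORAI counts and Orai1 held 27.7% and 20.5%. Orai2, first by TPM, was last of the family in technical replicate 1 of the smaller table and second in technical replicate 2. In CPM (counts scaled to a common library total), Orai2 in the smaller table was at 0.114 of its value in the larger table. In the estimated counts of the larger table, which are also not per length, Orai2 still held 80.3% and 81.3% of the family.

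Ppp3cb encodes the beta form of the calcineurin catalytic subunit (ENSMUSG00000021816.11, chr14:20499364-20546573, minus strand). It was at 34.05 and 37.56 TPM (35.8 ± 2.48 TPM), from 1037 and 960 estimated counts. Ppp3ca, the alpha form (ENSMUSG00000028161.17, chr3:136670124-136937727, plus strand), was at 14.92 and 13.68 TPM (14.3 ± 0.877 TPM), from 519 and 518 estimated counts. Both libraries thus placed the alpha form well below the beta form, with no overlap of values. Ppp3cc, the gamma form (ENSMUSG00000022092.11, chr14:70217865-70289471, minus strand), was at 12.3 and 12.61 TPM (12.5 ± 0.219 TPM), from 308.36 and 285.11 estimated counts.

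Of the catalytic TPM, which summed to 61.27 and 63.85, Ppp3cb held 55.6% and 58.8%. Ppp3ca held 24.4% and 21.4%, and Ppp3cc 20.1% and 19.7%. In the counts of the smaller table Ppp3cc came first, with 44.7% and 42.5%, ahead of Ppp3cb with 36.7% and 36.8%. In the estimated counts of the larger table, also not per length, Ppp3cb still held 55.6% and 54.4% and Ppp3cc 16.5% and 16.2%. The order of these 2 genes therefore rests on the table used. The small-table counts were 224 and 187 for Ppp3cc, 184 and 162 for Ppp3cb, and 93 and 91 for Ppp3ca.

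Ppp3r1 encodes the calcium-binding regulatory subunit that pairs with each catalytic form (ENSMUSG00000033953.10, chr11:17159263-17200375, plus strand). It was at 16.72 and 22.3 TPM (19.5 ± 3.95 TPM), from 537 and 634 estimated counts. Its log2 ratio between libraries, 0.39, was the largest of the members in size, and the credibility bounds of the libraries, 13.6 to 16.4 and 18.0 to 21.4 TPM, did not overlap. Ppp3r2, the testis form of the regulatory subunit, had 0 counts in both libraries, which allows up to 3 counts or 0.195 and 0.221 CPM. All measured regulatory subunit RNA therefore came from Ppp3r1. Ppp3r1 shares 462 exon bases with Wdr92, a gene on the same strand at 17.8 and 18.56 TPM, so reads of the shared bases were divided by estimation.

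Nfatc1 encodes an NFAT factor that is itself induced by NFAT activity in T cells (ENSMUSG00000033016.16, chr18:80606205-80713071, minus strand). It was at 72.79 and 65.06 TPM (68.9 ± 5.47 TPM), from 3730 and 3171 estimated counts. With 82.4% of the detected protein-coding genes below it, Nfatc1 was the highest member in both libraries. The credibility bounds of its libraries, 60.6 to 69.0 and 55.5 to 60.4 TPM, did not overlap. By CPM the libraries were closer, with a log2 ratio of -0.06 beside -0.16 by TPM. The mean transcript length of Nfatc1 was 4173 bases in technical replicate 1 and 4488 in technical replicate 2. Its processed transcript Nfatc1-207, of 672 bases, had 44.81 and 0 estimated counts.

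Nfatc3, a factor expressed from the thymus onward (ENSMUSG00000031902.10, chr8:106058840-106130537, plus strand), was at 26.13 and 23.43 TPM (24.8 ± 1.91 TPM), from 1499.26 and 1229.26 estimated counts. Nfatc2, the main NFAT factor of resting T cells (ENSMUSG00000027544.16, chr2:168476410-168601657, minus strand), was at 16.13 and 18.45 TPM (17.3 ± 1.64 TPM), from 898.4 and 910 estimated counts. Nfat5, the osmotic stress factor (ENSMUSG00000003847.16, chr8:107293470-107379517, plus strand), was at 15.87 and 15.55 TPM (15.7 ± 0.226 TPM), from 1339 and 1149 estimated counts. Nfatc3 was above both of these genes in each library, and Nfatc1 was above all 3. Nfatc4, a factor better known from neurons, had 0 counts and 1 count and did not reach the detection threshold.

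By share, Nfatc1 held 55.6% and 53.1% of the summed NFAT TPM, which came to 130.92 and 122.53. Nfatc3 held 19.96% and 19.1%, Nfatc2 12.3% and 15.1%, and Nfat5 12.1% and 12.7%. The Nfatc1 share in the smaller table was 60.7% and 59.4%, from 1125 and 993 counts. Nfatc2 held only 5.61% and 5.98% there, from 104 and 100 counts. Nfatc1 came first and Nfatc3 second in both tables.

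**Figure D2:**
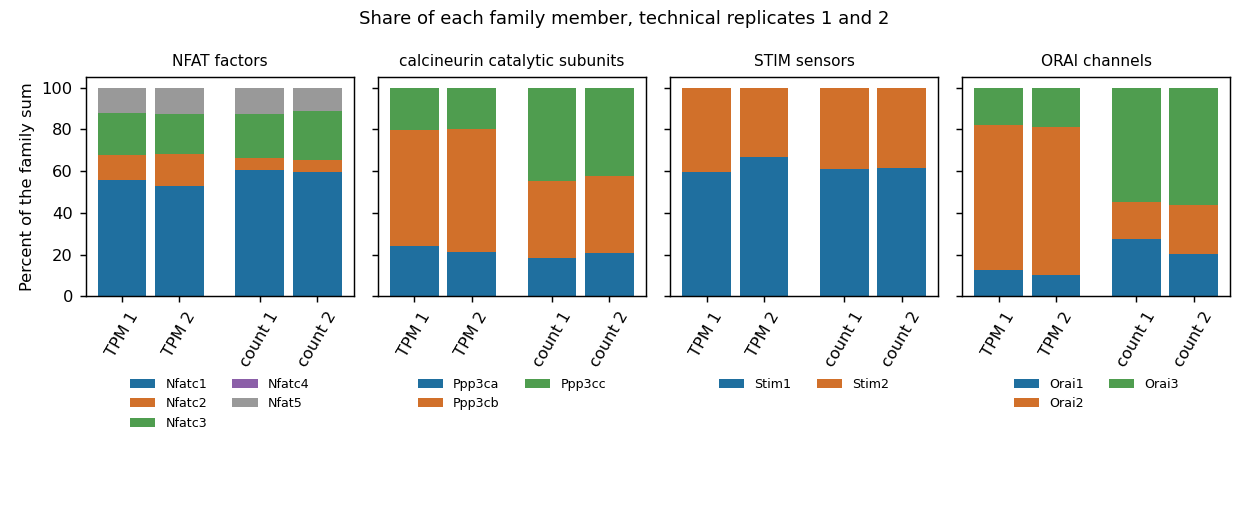
Share of each gene in the sum of its family, in percent, for the NFAT factors, the calcineurin catalytic subunits, the STIM sensors and the ORAI channels, with bars for TPM of the larger table and counts of the smaller table in technical replicates 1 and 2. Nfatc1 and Stim1 lead by both measures, whereas Ppp3cb and Orai2 lead by TPM and Ppp3cc and Orai3 by counts of the smaller table. Ppp3cb and Orai2 also lead by estimated counts of the larger table, which are not drawn.

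The reads of a gene are divided over its annotated transcripts in the transcript table, and the type of transcript that received them differed between members. Orai1 had 100% and 98.0% of its TPM on protein-coding transcripts, Nfatc1 92.0% and 100%, and Ppp3r1 89.1% and 89.4%. Ppp3cb had 72.2% and 62.9%, Ppp3ca 68.4% and 75.2%, Nfatc3 63.1% and 67.6%, Ppp3cc 64.9% and 58.5%, and Stim1 62.9% and 53.5%. Nfat5 had 43.3% and 50.5%. Nfatc2 stood apart, with 3.04% of its TPM on coding transcripts in technical replicate 1 and 0% in technical replicate 2. By posterior mean TPM this share was 7.67% and 4.10%, so the 0% rests on the estimate used. Types are those of the annotation, so a low share does not show that the RNA lacks coding sequence.

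**Figure D3:**
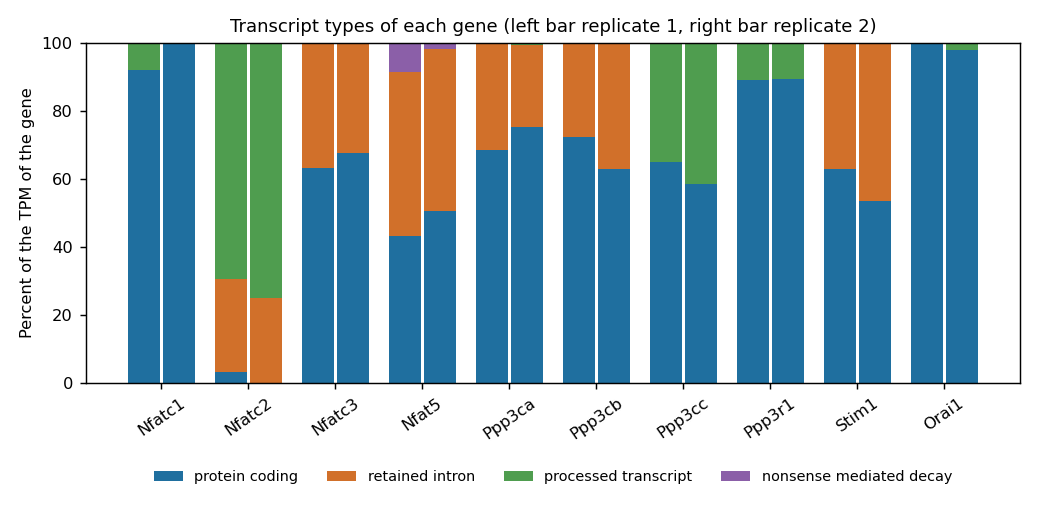
Percent of the TPM of each member on protein-coding, retained-intron, processed and nonsense-mediated-decay transcripts, with a bar for each technical library. Nfatc2 carries 3.04% and 0% of its TPM on transcripts annotated as coding, and Nfatc1, Ppp3r1 and Orai1 carry over 89% in each library.

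Most Nfatc2 TPM was assigned to Nfatc2-208, a processed transcript of 5399 bases at chr2:168476413-168552276 that ends near the 3′ end of the gene. It held 10.50 and 13.04 TPM, or 65.1% and 70.7% of the gene. Nfatc2-206, a retained-intron transcript from the downstream start, held 18.7% and 19.2%. The coding transcripts of Nfatc2 together had 40.31 and 0 estimated counts. Because Nfatc2-208 does not begin at either promoter shown above, transcripts that begin at the upstream start held only 4.53% and 4.50% of the TPM, and those at the downstream start 30.4% and 24.8%.

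Nfatc3 had a single leading coding transcript, Nfatc3-201, which starts downstream. It held 62.2% and 66.8% of the TPM of the gene. Transcripts of the downstream start came to 62.3% and 72.0%, and those of the upstream start to 14.7% and 8.96%. The remaining TPM of Nfatc3 was on transcripts that begin within the gene, among them the retained-intron transcripts Nfatc3-204 (11.2% and 11.7%) and Nfatc3-205 (11.9% and 7.36%). Retained-intron transcripts together held 36.9% and 32.4%, with Nfatc3-207, from the upstream start, at 13.8% and 8.16%. For both Nfatc2 and Nfatc3 more TPM began at the downstream than at the upstream start, in both libraries. In Nfatc2 this downstream TPM was on retained-intron transcripts, apart from Nfatc2-202 with 3.05% and 0% of the gene. Promoter use was not measured.

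Nfat5 was divided mainly between a retained-intron transcript of its 5′ part, Nfat5-212, and coding transcripts. Nfat5-212 held 41.1% and 42.8%. The coding transcripts Nfat5-201 and Nfat5-202 held 25.7% and 27.0%, and 17.5% and 23.3%. Nfat5-206, a transcript annotated for nonsense-mediated decay, held 8.76% and 1.95%. Shares on Nfat5-212 and Nfat5-201 differed little between libraries, and that on Nfat5-206 differed more.

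Nfatc1 is known to be made in a short form, which ends at a proximal polyadenylation site, and in long forms with a longer C-terminus that end at a distal site. In T cells the short form made from the upstream promoter is the one induced by receptor signals. The short form, which ends at position 80647435 of chromosome 18, held 34.7 and 31.56 TPM. This was 47.7% and 48.5% of the TPM of the gene (48.1% ± 0.592, n = 2). The long forms, which end at position 80606205, held 32.3 and 33.5 TPM, or 44.4% and 51.5%. The forms were thus at similar levels, with the short form above the long forms in technical replicate 1 and below them in technical replicate 2.

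By first exon, the coding transcripts of Nfatc1 that begin at the downstream start held 85.3% and 95.1% of the TPM. Those of the upstream start held 6.73% and 4.95%, or 7.63% and 14.3% by posterior mean TPM. The short form was mainly Nfatc1-201, from the downstream start, at 34.70 and 28.34 TPM. The long forms were mainly Nfatc1-205 at 17.67 and 18.46 TPM and Nfatc1-203 at 9.73 and 15.04 TPM. Estimates for the upstream start moved between transcripts: Nfatc1-204, a long form, had 276.76 estimated counts in technical replicate 1 and 0.01 in technical replicate 2, while Nfatc1-206, a short form, had 0 and 167.76. Their credibility bounds were wide, at 0.0135 to 8.98 and 0.111 to 9.43 TPM for Nfatc1-204. The division of upstream-start RNA into short and long forms was therefore not resolved by these libraries.

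**Figure D4:**
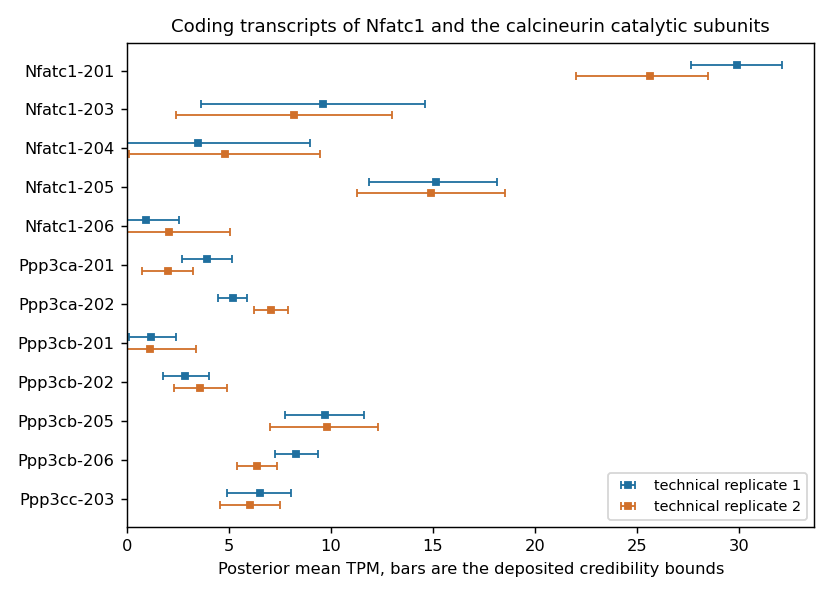
Deposited posterior mean TPM of coding transcripts of Nfatc1 and the calcineurin catalytic genes, with their credibility bounds, for both technical libraries. Nfatc1-201 is highest, and the bounds of Nfatc1-204, Nfatc1-206 and Ppp3cb-201 reach down to almost 0.

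Among the calcineurin genes, Ppp3cb-205, a coding form with the 30-base exon, was by TPM the leading transcript of Ppp3cb at 11.52 and 12.35 TPM. Its credibility bounds, 7.73 to 11.6 and 6.98 to 12.3 TPM, overlapped those of Ppp3cb-206 in both libraries. Forms with that exon held 42.7% and 43.6% of the TPM of Ppp3cb. The read-through form Ppp3cb-206, whose end is printed above, held 9.31 and 7.26 TPM, from 263.03 and 181.09 estimated counts. It made up 27.4% and 19.3% of the gene, and its posterior bounds were 7.26 to 9.35 and 5.39 to 7.35 TPM. The bounds stayed above 0 in both libraries and overlapped only at their edge, so the difference between libraries was not resolved. They do not tell Ppp3cb-206 from unspliced RNA that keeps the same intron, which was not tested. Retained-intron transcripts held 27.8% and 37.1% of the TPM of Ppp3cb.

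For Ppp3ca the coding form without the 30-base exon, Ppp3ca-202, held 5.79 and 8.01 TPM, or 38.8% and 58.5%. The form with it, Ppp3ca-201, held 4.41 and 2.28 TPM, or 29.6% and 16.7%. By TPM the form without the exon was thus the larger in both libraries, but the credibility bounds overlapped in technical replicate 1. There they were 4.45 to 5.87 TPM without the exon and 2.71 to 5.16 TPM with it. In Ppp3cb the forms with the exon were at 14.55 and 16.38 TPM. Ppp3cb-201, the coding form that skips it, was at 0.71 and 0 TPM. The form Ppp3cb-206 ends before that exon and does not bear on its use. Ppp3ca-201 ends at a shorter 3′ end than Ppp3ca-202, so reads that separate them come from both the exon and the 3′ ends. Ppp3cc-203, which carries the exon, held 64.9% and 58.5%, and the processed transcript Ppp3cc-202 held 35.1% and 41.5%.

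Ppp3r1 and Orai1 each had 1 leading coding transcript, Ppp3r1-201 with 89.1% and 89.4% and Orai1-202 with 98.3% and 95.2%. Stim1-201, the coding form of 2055 coding bases, held 62.2% and 53.5% of Stim1. The longer coding form Stim1-202 had 12.71 and 0 estimated counts. Retained-intron transcripts made up the rest of Stim1, among them Stim1-208 with 21.8% and 24.8% and Stim1-203 with 14.0% and 14.4%. The TPM of Stim1-201 itself was 21.46 and 21.30, so the difference between libraries in Stim1 TPM lay in the retained-intron transcripts.

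The technical libraries were then compared with each other, which asks how closely a level is repeated and compares no conditions. On the log2(TPM + 1) scale, technical replicate 2 over technical replicate 1, 5 members were lower and 5 higher, from -0.16 for Nfatc1 to 0.39 for Ppp3r1, with a median of 0.0028. An exact binomial test on the rounded estimated counts, with Benjamini-Hochberg adjustment, called 2 of the 10 members, beside 19.2% of the 17323 genes tested. Both were higher in technical replicate 2, beside 9.39% of genes called in that direction and 9.80% in the other. The share of members called was near this background.

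The called members were Ppp3r1, with a log2 ratio of TPM of 0.39 and an exact binomial adjusted p of 3.93e-05, and Nfatc2, with a log2 ratio of 0.18 and an adjusted p of 0.0267. Among 2541 genes of like count, 6.30% had a ratio larger in size than that of Ppp3r1. For Nfatc2 this share was 27.2% of 2382 genes. The binomial test allows only for the sampling of reads. The edgeR test that follows took its dispersion from both libraries as 1 group. Differences between the libraries then count as noise, so few calls are built into that test. With a common dispersion fitted over all genes, which gave a coefficient of variation of 0.105, the edgeR exact test called 0 of the 10 members and 311 genes in all. In the smaller table the exact binomial test also called 0 members, and in both of these tests 0 members had an unadjusted p under 0.05. Ppp3r1 was at 16.8 and 19.9 CPM in the smaller table, beside 34.9 and 46.6 CPM in the larger. Nfatc2 was at 29.0 and 30.6 CPM in the smaller table, beside 58.4 and 66.9 CPM in the larger. The ratio of Ppp3ca turned with the scale, at -0.12 for TPM and 0.17 for CPM, since its mean transcript length was 2849 bases in technical replicate 1 and 3498 in technical replicate 2.

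The gene tables gave unlike levels for several members, so their ratio was set beside the share of each gene's transcripts that is coding sequence. The ratio of CPM, smaller over larger table, was 2.92 for Ppp3cc, 1.55 for Orai1, 1.30 for Nfatc1 and 1.22 for Nfatc3. It was 0.994 for Stim1, 0.749 for Ppp3ca, 0.731 for Ppp3cb, 0.710 for Nfat5, 0.476 for Nfatc2 and 0.449 for Ppp3r1. The median over 9638 protein-coding genes was 1.69, so 9 of the 10 members were below it and only Ppp3cc was above. Weighted by the estimated counts of its transcripts, the coding part was 52.1% for Nfatc1, 48.6% for Orai1 and 46.3% for Ppp3cc. It was 44.4% for Nfatc3, 42.9% for Ppp3cb, 35.1% for Ppp3ca, 32.7% for Stim1 and 27.5% for Nfat5. The members with the lowest ratios, Ppp3r1 and Nfatc2, also had the lowest coding parts, at 17.3% and 0.934%. Ppp3cb did not follow that order, since its coding part was near those of Ppp3cc and Nfatc3 and its ratio was lower than both. The value of Nfatc2 follows the annotation, which gives no coding bases to Nfatc2-208, the transcript with 77.7% and 84.1% of its estimated counts. Its coding part came from only 40.31 and 0 estimated counts on coding transcripts.

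**Figure D5:**
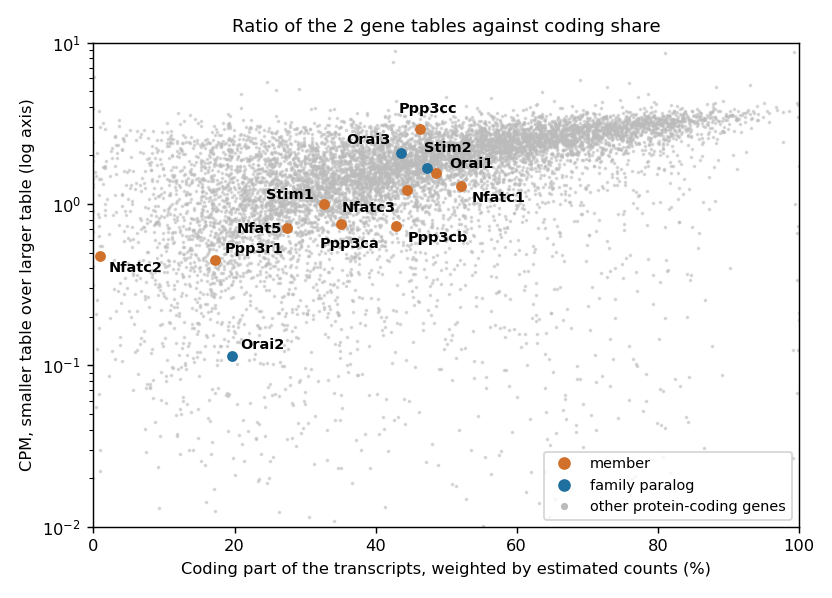
CPM in the smaller over the larger table (log axis) against the coding part of each gene's transcripts in percent, with members in orange, paralogs in blue and other protein-coding genes in grey; 135 of 9638 genes lie outside the axis. Members with a small coding part, such as Nfatc2 and Ppp3r1, have low ratios, and Ppp3cc lies above the other members.

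Across these genes the median ratio was 0.762 where under 20% of the transcript was coding, 1.20 from 20 to 40%, 1.88 from 40 to 60%, 2.57 from 60 to 80%, and 3.10 above. Spearman's rho across genes was 0.565, a description over 9638 genes that share libraries and are not replicates. Each member except Ppp3cc was below the median of its own range of coding share. Ppp3cb and Ppp3cc, whose order differs between the tables, had nearly equal coding parts (42.9% and 46.3%) and ratios of 0.731 and 2.92. Orai2 and Orai3 had unequal coding parts (19.6% and 43.6%) and ratios of 0.114 and 2.08, and the part of the coding share in their order was not tested. Ppp3cc shares 91 exon bases with Gm49417, an antisense gene at 3.97 and 4.92 TPM, and the sources used here give no strand setting for either count. Ppp3r1 shares 462 exon bases with Wdr92 on the same strand, and the part of this overlap in its low ratio was not tested.

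Genes around the members were read from 10 lists of the route, which held 121 annotated genes, paralogs included. Of these, 93 were detected, with a median over all 121 of 12.8 TPM. The exact binomial test between libraries called 26 of 105 tested genes, 14 higher and 12 lower in technical replicate 2, beside 19.2% of all genes tested. All 10 lists held detected genes, and 7 of the 121 genes had no read in either library.

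Upstream of Stim1, the list for calcium release had 7 of 10 genes detected. Inpp5d, a phosphatase of inositol lipids, was highest at 114 ± 5.54 TPM, followed by the store channel Itpr2 at 69.7 ± 1.35 TPM and the phospholipase Plcg1 at 45.8 ± 0.742 TPM. The kinases Itpkc at 0.745 TPM and Itpka at 0.070 TPM, and the phospholipase Plcg2 at 0.095 TPM, were under the threshold. Plcg1 is the phospholipase of T cells and Plcg2 that of B cells.

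Of the partners of store-operated entry 9 of 12 were detected. Sept7, a septin, was at 295 ± 9.43 TPM, Saraf, which slows entry once stores refill, at 251 ± 12.2 TPM, and Esyt1, a tether of the endoplasmic reticulum to the plasma membrane, at 50.6 ± 2.64 TPM. The levels of Saraf and Sept7 were above those of all 10 members. Cracr2b at 0.190 TPM and Jph4 and Tmem178, both at 0 counts, were not detected.

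Among pumps, exchangers and mitochondrial uptake genes 10 of 12 were detected. The plasma membrane pump Atp2b1 led at 125 ± 11.5 TPM, before the mitochondrial outer membrane channel Vdac1 at 49.7 ± 0.948 TPM and the store pump Atp2a3 at 49.4 ± 5.08 TPM. Atp2b2 at 0.160 TPM and the sodium exchanger Slc8a1, with 1 and 0 counts, were not detected.

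The list of other channels had 9 of 11 genes detected. The potassium channel Kcnn4, which keeps the membrane polarised while calcium enters, was at 97.7 ± 5.86 TPM. The ATP-gated channel P2rx7 was at 70.3 ± 4.65 TPM and Trpv2 at 51.2 ± 4.39 TPM. The voltage-gated channel subunits Cacna1e and Cacnb3 were both at 0.075 TPM. Kcnn4, P2rx7 and Trpv2 were all above Orai1 in both libraries.

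Between calcium and calcineurin, 11 of 12 calmodulin and calmodulin kinase genes were detected. Calm2 was at 449 ± 7.86 TPM and Calm3 at 80.1 ± 2.23 TPM, which encode the same calmodulin protein. Camk2a, a kinase of neurons, was at 0.265 TPM. Calm2 and Calm3 were both above Nfatc1, the highest member, in each library.

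Of the partners and inhibitors of calcineurin 8 of 11 were detected. Ppia, the cyclophilin through which cyclosporin acts, was at 1859 ± 10.2 TPM, and Fkbp1a, through which tacrolimus acts, was at 202 ± 8.24 TPM. Fkbp8, an immunophilin, was at 102 ± 4.50 TPM. The feedback inhibitor Rcan1 was at 1.43 and 2.30 TPM and Rcan3 at 12.0 and 12.8 TPM. Rcan2 had 0 counts and 1 count, and Chp2 and Ppp3r2 had 0 counts.

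Kinases that rephosphorylate NFAT, with its retention factors, had 10 of 16 genes detected. Csnk1a1 was at 110 ± 12.8 TPM, Csnk1d at 44.6 ± 1.64 TPM and Gsk3b at 41.8 ± 0.615 TPM, all casein kinase or glycogen synthase kinase genes that keep NFAT in the cytoplasm. Dyrk1b, at 0.94 and 1.06 TPM, was below the threshold in 1 library, and Dyrk3, Dyrk4, Homer2, Homer3 and Lrrk2 were below it in both. Lrrk2, part of a cytoplasmic complex that retains NFAT, was lowest at 0.060 TPM.

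Of the other NFAT regulators 7 of 8 were detected, with Nfatc4 the exception. The ubiquitin ligase scaffold Cul1 was at 53.6 ± 3.24 TPM and the nuclear exporter Xpo1 at 37.6 ± 1.88 TPM.

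Of 23 known NFAT target genes of T cells 18 were detected. The inhibitory receptor Pdcd1 was at 194 ± 4.43 TPM, the interleukin-2 receptor chain Il2ra at 175 ± 0.728 TPM and the inhibitory receptor Ctla4 at 171 ± 14.0 TPM. Il3 and Il13 had 0 counts, and Il5 at 0.240 TPM and Csf2 at 0.855 TPM were under the threshold. Havcr2, at 1.72 and 0.89 TPM, was under it in 1 library. Other cytokine genes of the list were detected, with Tnf at 15.9 TPM, Il4 at 11.8 TPM, Ifng at 9.36 TPM and Il2 at 2.31 TPM.

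For Nfat5, 5 of 7 osmotic target genes were detected. The aldose reductase Akr1b3 was at 326 ± 6.26 TPM, the taurine transporter Slc6a6 at 32.4 ± 3.63 TPM and the amino acid transporter Slc38a2 at 28.4 ± 2.16 TPM. The betaine transporter Slc6a12 had 0 counts and Hspa1b was at 0.805 TPM. All 3 of the leading targets were above Nfat5 itself in both libraries.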

How the data were processed

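The data were 2 technical libraries of polyadenylated RNA from 1 biological replicate, grouped by the labels. The authors deposited, per the file headers, a gene and a transcript table with estimated counts, TPM, FPKM, posterior mean TPM, its credibility bounds (here treated as a signal, with no stated level) and each transcript's percent of its gene. These used mm10 and GENCODE M21, and a smaller deposited table held whole-number counts from genome alignments with GENCODE M4 (3581589 and 3271045 counts), per the accompanying deposited text. The aligner, quantifier and strand setting are not given in the sources used here.

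Members were found by gene name and fitted within the whole table. The members and lists were chosen with earlier results of these data known. All members, their paralogs, transcripts with at least 10% of a member, and of each list the 3 highest genes, the lowest and those under 1 TPM in either library were named, with some additions chosen after their values were seen; some listed genes that the rule names are not reported here. Estimated counts were rounded. Genes with at least 10 summed counts were tested by a two-sided exact binomial test with TMM effective library sizes and adjustment at 0.05. That test was tried on simulated counts in which read sampling was the only noise. Its behaviour under the larger spread of these libraries was not tried. The p-values compare these 2 libraries only. A count of 0 allows up to 3 counts, which covers counting error only. Ratios used a pseudocount of 1 TPM. The comparison of tables took genes with at least 100 summed counts, and genes of like count were those within 1.5-fold. Of the listed genes Sept2 and Nron were not matched, and Stimate was matched as Tmem110. Alternatives were other thresholds, scalings, tables, a dispersion-based test and leaving out each library. R 4.3.3, edgeR 4.0.16, Python 3.11.15, scipy 1.17.1, pandas 2.3.3 and matplotlib 3.10.9 were used.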

Additional observations from a re-analysis of the deposited data

How the results depend on the processing

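Of the alternatives to the main results, 27 kept the direction and side of the threshold or stayed within the spread between libraries, 3 moved further and 4 lost calls. Among the 27 some counts still changed by more than that spread. Listed genes detected (93) were 99 at a threshold of 0.5 TPM and 80 at 5 TPM, and fewer genes were called without a minimum count. Among values of single members and transcripts 184 stayed within that spread and 64 moved further. The Nfatc1 share of NFAT TPM (54.3%) was 49.5% of estimated counts and 60.1% of the counts of the smaller table, which are not per length. The share of the short Nfatc1 form (48.1%) was 50.3% of estimated counts. The number of members called between libraries (2) was 0 in the smaller table and 0 with the edgeR exact test and a common dispersion, and that of all genes (3323) was 726 and 311; the cause was not tested. The common dispersion of the edgeR test took in the differences between the libraries, so few calls are built into it. The median log2 ratio of the members (0.0028) was -0.05 in the smaller table. Leaving out a library in turn gave 10 to 10 members detected, 94 to 94 listed genes detected, a median member level of 16.4 to 20.4 TPM, an Nfatc1 share of 53.1% to 55.6% and a short-form share of 47.7% to 48.5%. The order of the members' levels was the same by FPKM and by posterior mean TPM. No paired analysis was possible because there was 1 group. By posterior mean TPM the coding share of Nfatc2 (1.52%) was 5.88% and the upstream-start share of Nfatc1 (5.84%) was 10.95%. By estimated counts, which are not per length, the upstream-start share of Nfatc3 (11.8%) was 5.05% and the downstream-start share of Nfatc2 (27.6%) was 16.4%. Counts of 0 and 1 limit what can be said of Nfatc4.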
